A study of Rattus norvegicus with 10 samples.

Results

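Immediate early genes are switched on within minutes of neuronal firing, without new protein synthesis, and their transcripts serve as a common readout of recent activity. The set examined here held 10 genes: Fos, Fosb and Junb, which encode subunits of the AP-1 transcription factor; Egr1, Egr2, Egr3 and Egr4, which encode zinc finger transcription factors of the early growth response family; the nuclear receptor gene Nr4a1; Npas4, an activity-dependent transcription factor gene; and Arc, whose product acts at the synapse on the trafficking of glutamate receptors. Baroreceptor and other visceral afferents end in the brainstem in the nucleus tractus solitarii (NTS), where Fos is widely used to mark neurons that respond to blood pressure. Calcium and cAMP signals reach such genes through the factor CREB at the cAMP response element, and growth factor and MAP kinase signals reach them through the serum response factor at the CArG box.

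Every probe set of the array whose annotation gave 1 of these genes as its only symbol was taken, which yielded 12 of 31042 probe sets and covered 9 of the 10 genes. No probe set was assigned to Npas4, which was not analysed here. Signals came from 5 arrays of spontaneously hypertensive rats (SHR) and 5 arrays of normotensive Wistar-Kyoto rats (WKY), both male, 10 to 13 weeks of age and, as far as the labels say, untreated. The SHR is an inbred strain with high blood pressure of genetic origin, so the comparison is of 2 strains with all their genetic differences and not of blood pressure alone. Tissue for each array was the dissected NTS, and the labels leave it unclear if 1 rat or 5 pooled rats stood behind an array. In bulk tissue, fewer expressing cells and less RNA per cell cannot be told apart. The tissue label was checked against markers of the dorsal vagal complex: Dbh, of noradrenaline synthesis, averaged 272 ± 28.7 in SHR and 334 ± 51.1 in WKY (SD, n = 5 each), the homeobox gene Phox2a averaged 52.6 ± 8.76 in SHR and 52.1 ± 8.86 in WKY, and the probe set of Tlx3 was low in both strains, at 3.36 ± 1.04 in SHR against 3.39 ± 1.89 in WKY. Of the 9 such markers tested, 1 passed, the prolactin-releasing peptide gene Prlh, which was lower in SHR (difference -0.42; limma, adjusted p = 0.0379), and 3 (Prlh, Th and Dbh) had an unadjusted p below 0.05. Over all genes 3.98% passed, and over all kept probe sets 21.0% had an unadjusted limma p below 0.05.

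A filter on low signals kept probe sets that reached the 40th percentile of the array on at least 5 of the 10 arrays. It kept 6 of the 12 probe sets, 1 each of Fos, Egr1, Egr3, Egr4, Arc and Nr4a1. The other 6 (a second probe set each of Fos and Egr4, both of Egr2, and those of Fosb and Junb) were below it and were tested in a fit without the filter. Across all genes 803 of 18846 kept probe sets passed the test for SHR against WKY, which is 4.26% (limma, Benjamini-Hochberg adjusted p below 0.05). Of the 6 kept activity-gene probe sets, 1 passed, an Egr4 probe set that was higher in SHR, a difference known when the genes were chosen. The second probe set of Egr4 and all probe sets of the other 8 genes measured did not pass, with or without the filter. Across arrays of the same strain, no other activity gene passed the test of moving with the Egr4 signal. Of all 18845 other kept probe sets 0 passed it, and the intervals were wide, so absence of a shared movement is not shown. Egr1 and Arc ran against Egr4 in every setting, without passing.

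The sequences before the annotated start of 3 members are shown because they hold the elements named above, TGACG cores in each and a CArG box in Egr2 alone of these 3. Each run is the 250 bases before the start in RefSeq, build GRCr8, read 5′ to 3′ on the gene's own strand; capitals mark TGACG, the core of the cAMP response element, on either strand (CGTCA where it lies on the opposite one), and CArG boxes. Egr4 lies on the minus strand at chr4:119607818-119608067, Egr2 on the minus strand at chr20:21054442-21054691 and Nr4a1 on the plus strand at chr7:134259888-134260137. The starts used for Egr2 and Nr4a1 lie inside the span of the annotated gene, since RefSeq lists transcripts that begin further upstream.
Egr4: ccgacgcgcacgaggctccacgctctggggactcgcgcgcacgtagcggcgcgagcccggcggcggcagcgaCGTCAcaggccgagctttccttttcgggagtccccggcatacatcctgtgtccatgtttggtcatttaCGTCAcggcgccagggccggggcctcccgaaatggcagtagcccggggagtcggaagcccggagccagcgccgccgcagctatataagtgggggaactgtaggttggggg
Egr2: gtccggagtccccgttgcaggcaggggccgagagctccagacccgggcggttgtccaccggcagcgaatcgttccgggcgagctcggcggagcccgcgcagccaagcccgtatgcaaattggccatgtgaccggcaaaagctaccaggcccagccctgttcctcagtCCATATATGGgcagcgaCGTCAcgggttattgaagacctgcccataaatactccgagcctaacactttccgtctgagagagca
Nr4a1: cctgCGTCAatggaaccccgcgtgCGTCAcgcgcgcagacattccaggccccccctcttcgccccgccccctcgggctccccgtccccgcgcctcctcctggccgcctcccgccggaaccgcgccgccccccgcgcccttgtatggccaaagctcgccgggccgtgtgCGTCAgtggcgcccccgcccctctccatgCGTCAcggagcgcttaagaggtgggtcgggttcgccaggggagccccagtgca

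The Egr4 window held 2 TGACG cores, with their first bases 178 and 110 bases before the start, and no CArG box. The Egr2 window held 1 core, 66 bases before the start, and 1 CArG box, 83 bases before it. In the Nr4a1 window there were 4 cores and no CArG box. Windows of 7 members were in the table. Over 300 bases (250 before and 50 after the start), 5 of these 7 held a core, against 21.2% of the 33469 windows of all genes, and 2 (Egr1 and Egr2) held a CArG box, against 1.64% of all windows. The full element TGACGTCA and the Egr site GCGTGGGCG were in none of the 7, against 1.83% and 0.544% of all windows; TATAAA was in 2 of the 7 (Fosb and Junb), against 14.2%. These are letter matches on both strands and do not show that a factor binds.

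Of the 2 Egr4 probe sets 1 differed between the strains. That probe set, 1375784_at, had signals of 35.2, 45.8, 49.9, 55.0 and 32.7 on SHR arrays 1 to 5, against 22.8, 8.45, 7.94, 16.1 and 3.88 on WKY arrays 1 to 5. All 5 SHR arrays stood above all 5 WKY arrays, with the lowest SHR array at 32.7 and the highest WKY array at 22.8. Strains did not overlap for 6.13% of the kept probe sets. Of the 6 kept activity-gene probe sets this was the 1 with that pattern, and all those below the filter overlapped. Its entry through the filter by SHR alone, given below, nearly fixes that pattern, so it is not counted as support. The means were 43.7 ± 9.55 in SHR and 11.8 ± 7.54 in WKY (SD, n = 5 each). On log2(signal + 16), the scale of all differences given here, Egr4 was higher in SHR by 1.13 ± 0.19 (SE), with a 95% interval of 0.73 to 1.52, which is a fold of 2.18 on this scale (limma, adjusted p = 0.00175). The offset sets the size of such differences for low signals: with an offset of 1 the Egr4 difference was 1.98, and with an offset of 64 it was 0.51, and both passed.

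This probe set passed the filter through SHR alone: 5 SHR arrays and 0 WKY arrays reached the 40th percentile, which lay at 31.3 to 35.9 in SHR and at 26.3 to 32.04 in WKY. A probe set that enters the test in this way has to differ, so its call is not counted as support for the set as a whole. The Egr4 difference was also known when the members were chosen, and that holds for every setting of the fit. Without the filter Egr4 also passed (limma, adjusted p = 0.00613), which does not undo that choice. The array median lay at 44.2 to 49.8 for SHR and at 39.6 to 45.7 for WKY, so signal level moved with strain too. With log2 of the array median added to the fit, Egr4 differed by 0.94 ± 0.25 and no longer passed (adjusted p = 0.0933).

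**Figure D1:**
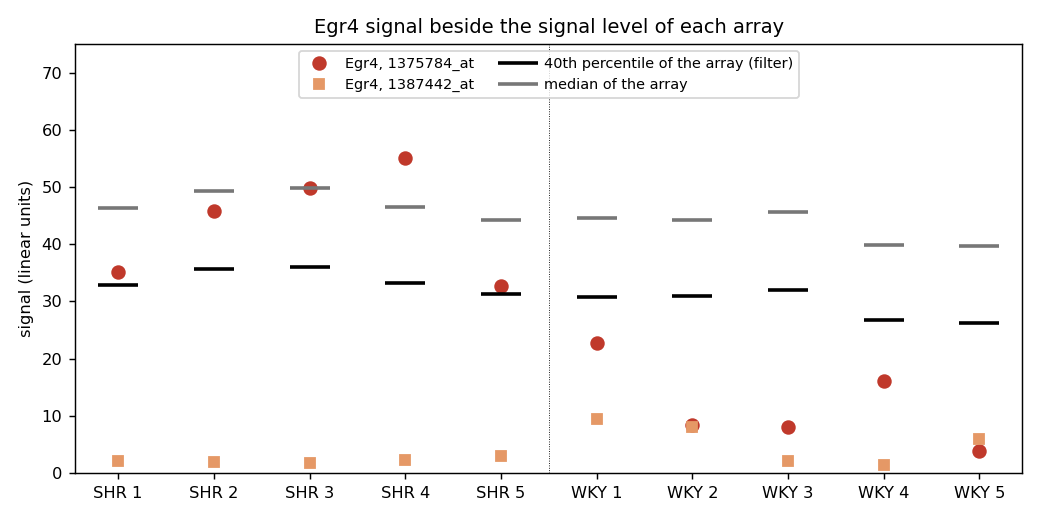
Signal (linear units) of both Egr4 probe sets on each array, SHR at the left and WKY at the right, with the 40th percentile and the median of each array as bars. The circles of 1375784_at lie above the 40th percentile on the 5 SHR arrays and below it on the 5 WKY arrays, while the squares of 1387442_at lie below 10 throughout.

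The second Egr4 probe set, 1387442_at, whose annotation cites the RefSeq transcript of Egr4, did not show that pattern. It had 2.03, 1.98, 1.67, 2.27 and 2.98 on SHR arrays 1 to 5, against 9.49, 8.10, 2.01, 1.37 and 5.97 on WKY arrays 1 to 5. The strains overlapped, 3 WKY arrays lay above all SHR arrays, and none of the 10 arrays reached the 40th percentile. The difference was -0.22 ± 0.11 (95% interval -0.45 to 0.013; adjusted p = 0.301 in limma without the filter), so its sign was opposite to that of the first probe set. The annotation of 1375784_at cites an entry that is not a RefSeq transcript. Which of the 2 probe sets follows the Egr4 transcript was not tested.

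**Figure D2:**
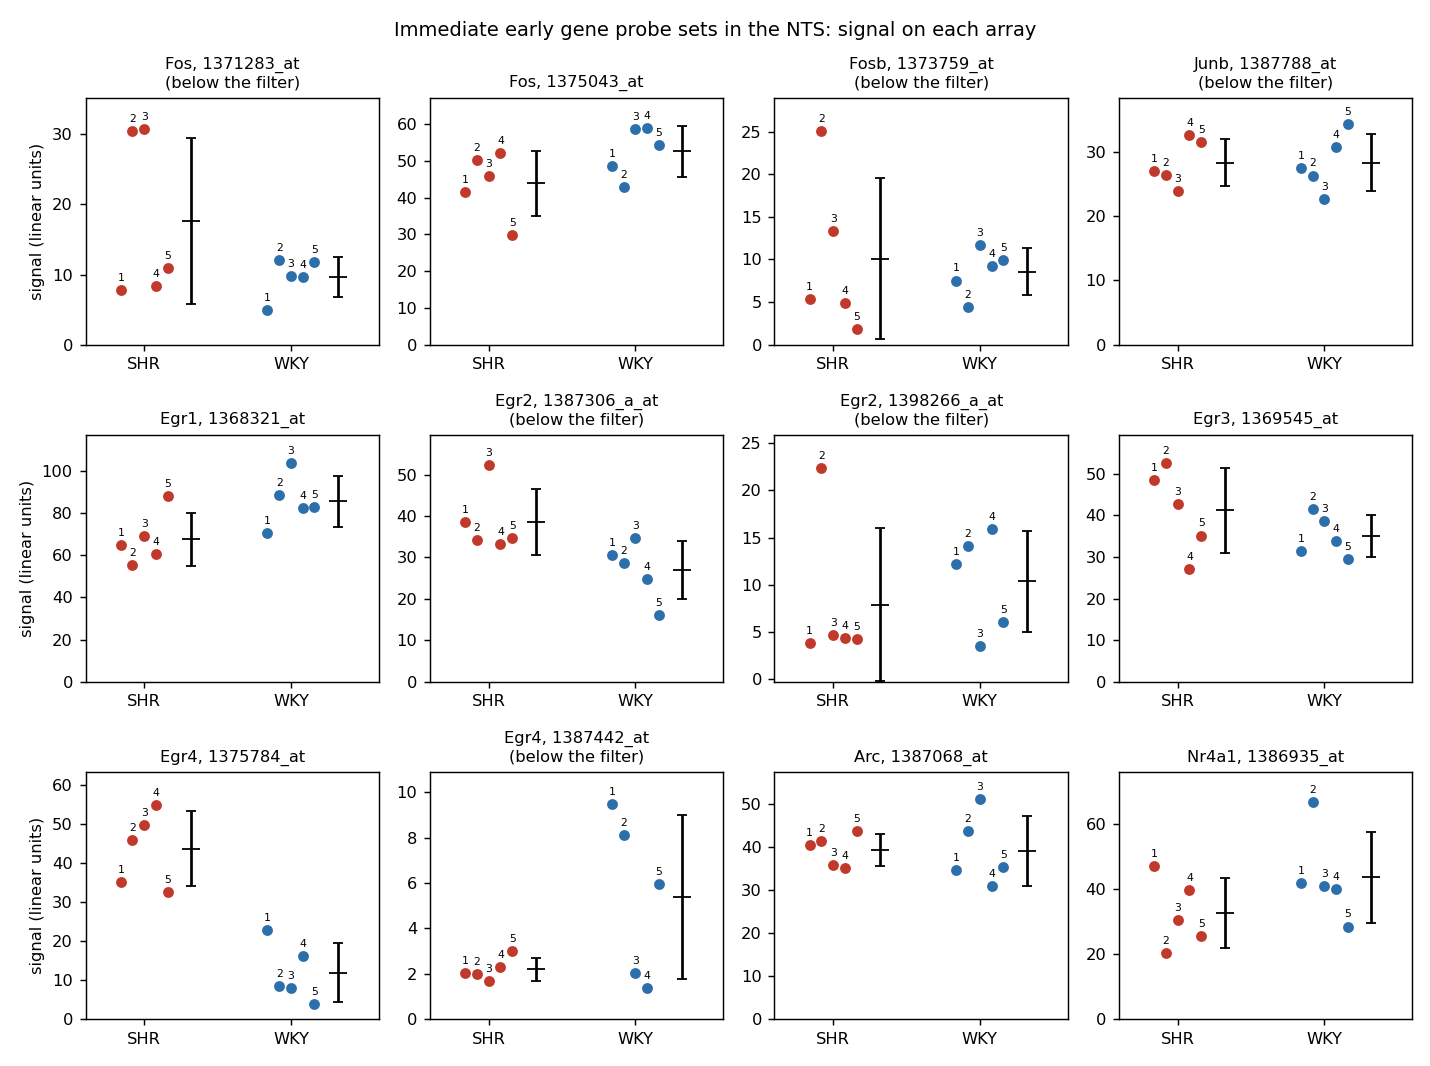
Signal (linear units) of the 12 probe sets of 9 activity genes on each array, with array numbers beside the points and the mean ± SD (n = 5) as bars, SHR left of WKY. Egr4 on 1375784_at is the probe set whose strains do not overlap; its means are 43.7 in SHR and 11.8 in WKY.

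Of the AP-1 subunits, Fos had 41.6, 50.2, 46.0, 52.1 and 29.7 on SHR arrays 1 to 5 (probe set 1375043_at), against 48.7, 42.8, 58.7, 58.9 and 54.3 on WKY arrays 1 to 5. The strains overlapped, with SHR 5 the lowest of all arrays. The difference was -0.21 ± 0.13, with an interval of -0.47 to 0.064 (limma, adjusted p = 0.378). A second Fos probe set, 1371283_at, was below the filter and spanned 7.84 to 30.7 in SHR and 5.00 to 12.03 in WKY. SHR 2 and SHR 3, at 30.4 and 30.7, stood above the other 8 arrays on it, and these 2 arrays also had the highest median signals of all. Its difference of 0.33 ± 0.20 did not pass (limma without the filter, adjusted p = 0.409), and its sign was opposite to that of the first Fos probe set.

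Fosb, a partner of the Jun proteins like Fos, spanned 1.81 to 25.1 in SHR and 4.40 to 11.7 in WKY, again with SHR 2 and SHR 3 the highest arrays (25.1 and 13.4). It differed by 0.030 ± 0.19 (interval -0.39 to 0.45; adjusted p = 0.953). Junb, which encodes a Jun subunit of AP-1, spanned 23.9 to 32.6 in SHR and 22.7 to 34.3 in WKY, and differed by 0.0016 ± 0.12 (interval -0.26 to 0.27; adjusted p = 0.996). The strains covered nearly the same range for Junb, and both probe sets were below the filter and tested in limma without it.

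Among the other Egr genes, Egr1, the family member most used as an activity marker, was at or above the 40th percentile on all 10 arrays. It had 65.0, 55.2, 69.0, 60.7 and 88.0 on SHR arrays 1 to 5, against 70.5, 88.4, 104, 82.2 and 82.9 on WKY arrays 1 to 5. Of the SHR arrays 4 lay below all WKY arrays, and SHR 5 lay within the WKY range. Egr1 differed by -0.29 ± 0.11, opposite in sign to Egr4, with an interval of -0.53 to -0.044 (limma, unadjusted p = 0.0234, adjusted p = 0.162). An unadjusted p below 0.05 was found for 21.0% of all kept probe sets, so that alone does not set Egr1 apart.

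Egr3, which like Egr1 follows neuronal activity, had 48.5, 52.7, 42.9, 27.2 and 35.2 on SHR arrays 1 to 5, against 31.4, 41.5, 38.8, 33.9 and 29.5 on WKY arrays 1 to 5. SHR arrays held both the highest values and the lowest one. The difference was 0.15 ± 0.14 (interval -0.15 to 0.45; adjusted p = 0.570), and with the median signal covariate it was -0.030 (adjusted p = 0.981).

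Egr2, which also governs myelination in peripheral nerve, had 2 probe sets below the filter that differed in opposite directions. The first, 1387306_a_at, had 38.5, 34.2, 52.3, 33.2 and 34.7 on SHR arrays 1 to 5, against 30.7, 28.7, 34.7, 24.8 and 16.1 on WKY arrays 1 to 5. WKY 3, the highest of its strain, lay within the SHR range. The difference of 0.35 ± 0.15 (interval 0.024 to 0.67) did not pass after adjustment (limma without the filter, unadjusted p = 0.0372, adjusted p = 0.238). In that fit 18.3% of all probe sets had an unadjusted p below 0.05, so that alone does not set Egr2 apart. The second, 1398266_a_at, lay at 3.88 to 4.68 on 4 SHR arrays and at 22.4 on SHR 2, against 3.52 to 15.9 in WKY, and differed by -0.17 ± 0.19 (adjusted p = 0.676).

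Nr4a1, the orphan nuclear receptor Nur77, had 47.2, 20.4, 30.5, 39.8 and 25.5 on SHR arrays 1 to 5, against 41.8, 66.8, 41.1, 39.9 and 28.5 on WKY arrays 1 to 5. Its strain difference on log2(signal + 16) was less precise than that of Egr1 or Arc, with an SE of 0.18 against 0.11 for Egr1 and 0.13 for Arc. The difference was -0.29 ± 0.18 (interval -0.66 to 0.080; adjusted p = 0.362). It reached the 40th percentile on 2 SHR arrays and 5 WKY arrays, so its entry into the test was also uneven.

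Arc had 40.4, 41.5, 35.8, 35.0 and 43.8 on SHR arrays 1 to 5, against 34.6, 43.6, 51.2, 30.8 and 35.4 on WKY arrays 1 to 5. All SHR arrays fell inside the WKY range. The difference was 0.014 ± 0.13, with an interval of -0.25 to 0.28 (limma, adjusted p = 0.965). A shift of Arc by the 1.13 seen for Egr4, a size that depends on the offset, lay outside that interval. For probe sets of low signal the offset of 16 compresses differences, so their intervals cannot be read against that size.

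**Figure D3:**
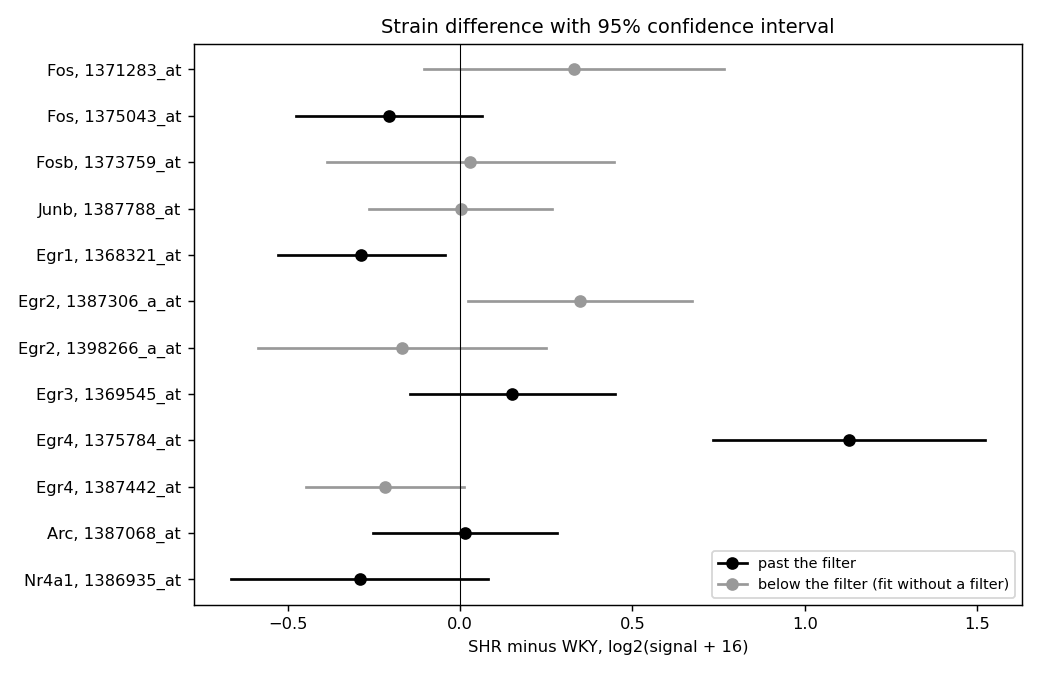
SHR minus WKY difference on log2(signal + 16) for the 12 probe sets, with 95% confidence intervals; grey marks the 6 below the filter, from the fit without it. The interval of Egr4 on 1375784_at runs from 0.73 to 1.52, and the highest upper bound of any other probe set is 0.76. Differences of low signals are compressed by the offset.

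Whether Egr4 moved with other activity genes was then asked within strains. Because Egr4 separated the strains, a correlation over all arrays would repeat the strain difference, and 5 arrays are too few for one within a strain. Each array was therefore expressed as its deviation from its strain mean, and these deviations were correlated over the 10 arrays. Egr4 stands for probe set 1375784_at in these correlations. Its deviations ran from -0.28 (SHR 5) to 0.27 (SHR 4) in SHR and from -0.44 (WKY 5) to 0.52 (WKY 1) in WKY. The WKY deviations, the widest of all included, came from signals of 3.88 to 22.8, none of which reached the 40th percentile of its array.

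Egr1 and Arc had the lowest values, and both ran against Egr4. Egr1 correlated with Egr4 at r = -0.60 (Spearman rho = -0.67; exact permutation within strains, p = 0.0724 and 0.0533) and Arc at r = -0.54 (rho = -0.64; exact permutation p = 0.204 and 0.0842). Fos correlated at r = 0.35 (rho = 0.42; exact permutation p = 0.302 and 0.234), Nr4a1 at r = 0.11 (rho = 0.32; p = 0.792 and 0.405, by the same permutation) and Egr3 at r = -0.20 (rho = -0.10; p = 0.544 and 0.788, by the same permutation). Of these 5 kept probe sets 2 had an r above 0. Over all 18845 other kept probe sets r had a median of 0.014, and 51.4% were above 0. The r of Egr1 stood at the 2.47th percentile of that distribution, that of Arc at the 4.16th and that of Fos at the 83.2th.

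**Figure D4:**
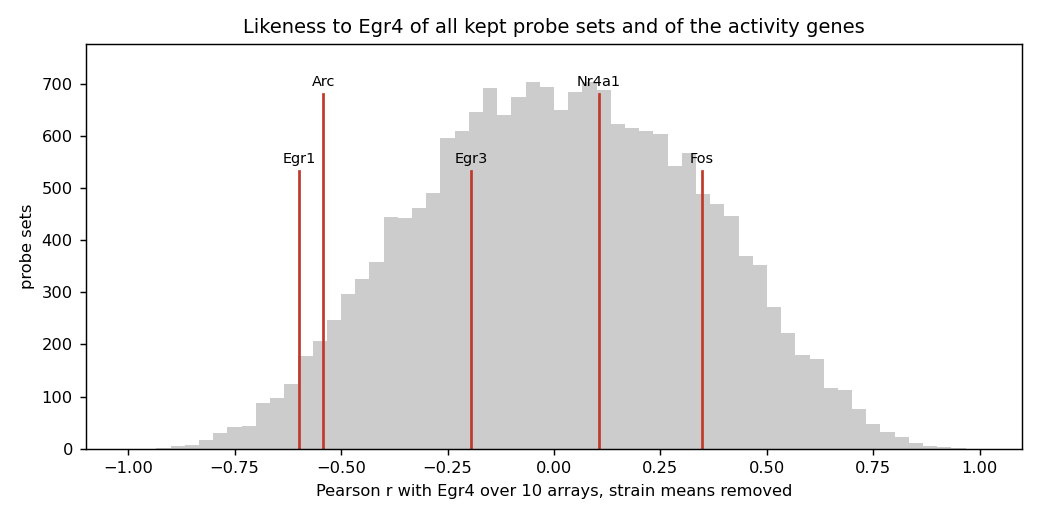
Distribution of Pearson's r with Egr4 (1375784_at) over 10 arrays, with strain means removed, for the 18845 other kept probe sets; the y axis counts probe sets and lines mark the 5 kept activity genes. Egr1 (-0.60) and Arc (-0.54) lie in the lower tail and Fos (0.35) right of the centre.

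Among the 6 probe sets below the filter, r with Egr4 ran from -0.13 for Junb to 0.38 for the second Egr2 probe set, and the second Egr4 probe set had r = 0.086. All 11 exact permutation p of Pearson's r were above 0.05. In a limma fit over all kept probe sets, with strain and the Egr4 deviation as terms, 0 of the 5 passed, and 0% of all 18845 did; 468 of these, or 2.48%, had an unadjusted p below 0.05, and none of the 5 was among them. The slope of Egr1 on Egr4 was -0.36 ± 0.19 (limma, unadjusted p = 0.0784, adjusted p = 0.9999), that of Arc -0.28 ± 0.22 and that of Fos 0.21 ± 0.23. The intervals are wide: that of Fos ran from -0.27 to 0.70 log2 units for each log2 unit of Egr4, and that of Egr3 from -0.68 to 0.41.

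The size of these values depended on single arrays, while the sign held for Egr1, Arc and Fos in all 15 alternative settings. WKY 1 and WKY 5 lay farthest from the median of the Egr4 deviations. Without these 2 the r with Egr4 was -0.67 for Egr1, -0.82 for Arc, 0.74 for Fos, -0.37 for Egr3 and -0.16 for Nr4a1, so the sign turned for Nr4a1. With 1 array left out, the r of Fos lay between 0.13 (without SHR 5) and 0.60 (without WKY 1). Without WKY 5 alone, Egr1 had r = -0.76 and Arc r = -0.81 (exact permutation p = 0.0240 and 0.0344, not adjusted for the 11 relations). The deviation of Egr4 correlated with that of the array's log2 median signal at r = 0.34 (rho = 0.35; exact permutation p = 0.398 and 0.384), and at -0.044 without WKY 1 and WKY 5.

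**Figure D5:**
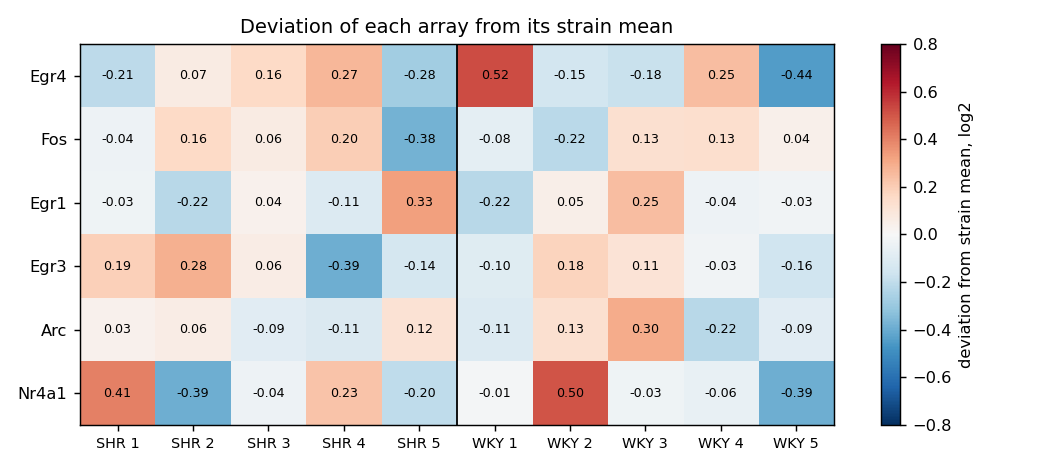
Deviation of each array from its strain mean on log2(signal + 16) for the 6 kept probe sets, with Egr4 in the top row and SHR arrays left of WKY arrays. SHR 5 and WKY 5 are low for Egr4 (-0.28 and -0.44), where Egr1 stands at 0.33 and -0.03.

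The correlations among the other activity genes had both signs. Over the 10 pairs of kept probe sets without Egr4, r had a median of 0.0048 and ran from -0.49 for Fos with Egr1 to 0.60 for Egr1 with Arc, and 5 of the 10 were above 0; Egr3 with Arc had 0.46. Over all 66 pairs the highest r was 0.77, between the Fosb probe set and the second Fos probe set, both of which were high on SHR 2 and SHR 3. The lowest was -0.88, between Junb and the first Egr2 probe set. Probe sets of the same gene had r = 0.27 for Fos, -0.13 for Egr2 and 0.086 for Egr4, with a probe set below the filter in each pair. A low r between genes therefore does not show that their transcripts move apart. These pairs share arrays and the signal level of each array, and no p is given for them.

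The named genes whose deviations were most like those of Egr4 over the 10 arrays were Kdm4b (r = 0.95), a histone demethylase gene, the prostaglandin F receptor gene Ptgfr (0.94), Fpgs (0.93), of folate metabolism, Jarid2 (0.91), a partner of the Polycomb complex, and Rxylt1 (0.90). Most opposite were Ddx3x (-0.92), an RNA helicase gene, Hddc2, Eloc, Cert1 and Cyfip2 (all -0.88). With Fos, the highest were the cathepsin gene Ctsb (0.92), Tmed2 (0.92), Slc6a17 (0.91), Kctd2 (0.89) and Macroh2a2 (0.89). No activity gene was among the 5 highest for Egr4 or for Fos. With 5 other kept activity-gene probe sets among 18845 compared, that absence says little about their likeness. In the limma fit on the Egr4 deviation 0 of the 18845 passed, so the genes named here are a ranking only.

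Beyond the members, 4 lists of genes around the activity response were read from the same fit, each gene by its brightest kept probe set. Over all 10668 genes 425 passed, or 3.98%, with a median difference of 0.0020. Of the 75 list genes tested 2 passed, both lower in SHR and both late activity genes. Tac1, the precursor of substance P, averaged 208 ± 18.2 in SHR against 265 ± 12.3 in WKY (difference -0.33 ± 0.070; limma, adjusted p = 0.0114). Pdyn, which encodes the precursor of the dynorphins, averaged 343 ± 46.4 in SHR against 496 ± 31.8 in WKY (difference -0.52 ± 0.083; limma, adjusted p = 0.00117), while its second kept probe set differed by -0.0023.

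Over all kept probe sets 21.0% had an unadjusted limma p below 0.05 and 53.95% a difference above 0. Counts near these shares do not set a list apart. Of 17 other rapid transcription factor genes 0 passed in limma and 4 had an unadjusted p below 0.05, with 9 above 0 and a median difference of 0.044. Nearest was Cebpd, a leucine zipper factor gene, at -0.40 ± 0.13 (adjusted p = 0.102). Nr4a2, a relative of Nr4a1, had a difference of 0.21 ± 0.085 (limma, adjusted p = 0.169), and of 0.058 when its kept probe sets were averaged. Crem, a CREB relative whose product can repress cAMP response elements, had -0.28 ± 0.11 (limma, adjusted p = 0.149). Of 19 rapid effectors and feedback inhibitors 0 passed and 4 had an unadjusted p below 0.05, with a median of 0.0060; the phosphatase gene Dusp14 came nearest (0.33 ± 0.095; adjusted p = 0.0620), and Homer1, a postsynaptic scaffold with an activity-induced short form, differed by 0.22 ± 0.099 (adjusted p = 0.203). Of 26 genes of upstream signalling 0 passed and 5 had an unadjusted p below 0.05, with a median of 0.053; nearest was Mef2c, a calcium-responsive transcription factor gene (-0.40 ± 0.11; adjusted p = 0.0514). The late list held 13 tested genes with a median of -0.024, of which 4 were above 0. These 6 genes that did not pass were chosen after their values were seen.

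Of the marker lists of cell types, that of microglia and macrophages alone had sums that did not overlap between the strains. The summed signal of 13 microglia and macrophage markers was 2553 to 2736 in SHR and 3103 to 3426 in WKY, without overlap. Of the 12 tested, 5 passed in limma, all lower in SHR, against 3.98% of all genes in either direction. An unadjusted limma p below 0.05 was found for 6, and 1 of the 12 had a difference above 0. Over all kept probe sets these shares were 21.0% and 53.95%, which also stand beside the counts of the lists that follow. For 10 choroid plexus markers the sum was 1064 to 1210 in SHR and 817 to 1073 in WKY. Of 6 tested, 2 passed, both higher in SHR, 3 had an unadjusted limma p below 0.05, and 6 had a difference above 0. That of 12 neuron markers was 14421 to 16118 in SHR and 13003 to 14850 in WKY. Of 12 tested, 1 passed, Snap25, higher in SHR, 3 had an unadjusted limma p below 0.05, and 9 had a difference above 0. With the kept probe sets of each gene averaged, 4 microglia, 2 choroid plexus and 0 neuron markers passed. The microglia marker Aif1 differed by -0.52 on its brightest probe set and by -0.0071 on that average. The sum of 8 forebrain neuron markers, 169 to 281 in SHR and 144 to 216 in WKY, and that of 10 cerebellar markers, 1315 to 1408 and 1249 to 1414, overlapped between SHR and WKY; 0 of 2 and 0 of 9 passed in limma (0 and 2 at an unadjusted p below 0.05). The oligodendrocyte, the endothelium and mural cell, and the meninges and fibroblast lists each had 1 of 9 tested markers pass in limma, lower in SHR. In that order these were Mobp (-0.34, adjusted p = 0.0126), Vwf (-0.52, adjusted p = 0.0141) and Ptgds (-0.30, adjusted p = 0.0306), all in limma. In the same order, 1, 5 and 6 of 9 had a difference above 0, and 2, 2 and 3 had an unadjusted limma p below 0.05. Of astrocyte markers 0 of 9 passed in limma (3 at an unadjusted p below 0.05), and of blood cell markers 0 of 2 (0 at that level). The part of these shifts in the Egr4 difference was not tested. The ratio of the 3' to the 5' control probe set of Gapdh, a measure of RNA integrity, was 1.12 to 1.34 in SHR and 1.07 to 1.2 in WKY, and that of Actb was 2.26 to 3.92 in SHR and 2.64 to 3.54 in WKY.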

How the data were processed

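RNA of the NTS was amplified and hybridised to 1-colour Affymetrix Rat Genome 230 2.0 arrays, per the labels. The deposited table holds 1 linear intensity for each probe set and array, for which the submitters' processing notes name GCOS 1.2. The background step, detection calls and scan batches are not given in those sources. The mean intensity after trimming 2% at each end was 100 on every array of the deposited table, so no further scaling was applied. Arrays were grouped by strain from their titles, and the unnumbered first array of each strain is called 1. The design text of the series calls each array an independent biological replicate, while the labels describe 5 animals for a sample. If an array stands for 1 rat or a pool is unresolved. The p-values take the array as the unit, and the number of arrays limits the precision.

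After 57 control probe sets were left out, log2(signal + 16) was fitted with strain as the single term in limma 3.58.1 (R 4.3.3; lmFit, eBayes with trend) over 18846 kept probe sets, with Benjamini-Hochberg adjustment. A second fit added the strain-centred Egr4 signal. Symbols were updated through Entrez identifiers to GRCr8 (20826 probe sets with 1 symbol, 436 with several, 9780 with none). Pearson and Spearman correlations used all 14400 permutations within strains. Both procedures were tested on simulated data. The genes named are the members, up to 3 list genes in each direction past the threshold, and the 5 most and least like Egr4 and 5 most like Fos; other list genes and markers that are named were chosen after their values were seen. The members and lists were chosen with earlier results of these data known, the Egr4 difference among them. Alternatives were quantile normalization, offsets of 1 and 64, no filter or the 60th percentile, eBayes without trend, robust eBayes, weighting of arrays, a block on the replicate number, a median signal covariate, another choice of probe set for a gene, and leaving out arrays.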

Additional observations from a re-analysis of the deposited data

Results flagged for a closer look

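Of 24 groups of 5 arrays (12 probe sets in 2 strains), 2 held an array far from the others by Dixon's ratio, whose 95% critical value is 0.71 for 5 values; chance gives about 1 in 20. Both were Egr2 probe sets in SHR: 1398266_a_at, where SHR 2 stood at 22.4 and the other 4 SHR arrays at 3.88 to 4.68, and 1387306_a_at, where SHR 3 stood at 52.3 and the others at 33.2 to 38.5. SHR 2 and SHR 3 had the highest median signals of all arrays (49.4 and 49.8); the part of signal level in these values was not tested.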

How the results depend on the processing

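The count of all probe sets past the threshold, 803, was 206 with the median signal covariate, 512 without SHR 2 and SHR 3, and 480 (without WKY 4) to 976 with 1 array left out; without WKY 5 it was 481. With the replicate block it was 1214. Same-numbered SHR and WKY arrays deviated together at r = 0.0494, 0.139, 0.134, 0.038 and 0.282, and 3 of 5 SHR arrays correlated best with their own number, a hint that numbers may share something the labels do not state. The numbers were not taken as pairs, since the labels give no pairing and 2 of these correlations were near 0; the Egr4 difference with the block was 1.13 (adjusted p = 0.00237). Activity-gene probe sets past the threshold numbered 0, not 1, with the median signal covariate, where Egr4 differed by 0.94, and 0 with the filter at the 60th percentile, which removed Egr4, so that filter gives no value for it. In the other 19 settings Egr4 passed, at 0.51 to 1.98, and at 1.02 to 1.26 with 1 array left out (filter as on all 10 arrays). The sign of Arc, near 0, turned with quantile normalization (-0.11), with the covariate (-0.10) and in part with 1 array left out (-0.042 to 0.088), and that of Egr3 turned with the covariate (-0.030). Activity genes with an adjusted slope on Egr4 numbered 0 in every setting.

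Relations with Egr4 at an unadjusted exact permutation p of Pearson's r below 0.05 numbered 0, and 1 with quantile normalization (Arc, r = -0.77), 1 without SHR 2 and SHR 3 (the second Fos probe set, r = -0.78) and 0 to 2 with 1 array left out. By Spearman's rho Egr1 was below 0.05 with quantile normalization (rho = -0.72, exact permutation p = 0.0230), as was Arc (rho = -0.73, p = 0.0370 by the same permutation), and Egr1 also with offset 1 (p = 0.0483), without SHR 3 (p = 0.0347), without WKY 5 (p = 0.0229) and without SHR 2 and SHR 3 (p = 0.0264), all by the same permutation. Arc was so without WKY 5 (exact permutation p = 0.0108), and the second Fos probe set without SHR 2 and SHR 3 (exact permutation p = 0.0319). The r changed sign for the second Fos probe set with an offset of 64 (0.068), for Fosb without SHR 2 and SHR 3 (-0.011), for Junb with the covariate (0.38), and for the second Egr4 probe set with quantile normalization (-0.016) and offset 1 (-0.049). With 1 array left out, r ran from -0.20 to 0.20 for the second Fos probe set, -0.025 to 0.28 for Fosb, -0.32 to 0.26 for Junb, -0.031 to 0.54 for the first Egr2 probe set, -0.45 to 0.062 for Egr3, -0.50 to 0.38 for the second Egr4 probe set and -0.22 to 0.28 for Nr4a1. In all 15 alternative settings r kept its sign for Egr1 (-0.76 to -0.44), Arc (-0.81 to -0.45) and Fos (0.13 to 0.60). The same held for the second Egr2 probe set (0.30 to 0.54). The filter does not enter r. Of the 75 list genes 4, not 2, passed when the kept probe sets of each gene were averaged, the added ones being Klf6 and Mef2c. Klf6 differed by -0.20 on its brightest probe set and by -0.33 on the average. Mef2c differed by -0.40 in both fits, and its adjusted p in limma was 0.0514 and 0.0473. The cause of these changes was not tested. Most activity-gene probe sets had signals near or below the array median, and without detection calls they are not judged against background.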
